A study of Mus musculus with 147 samples.

Results

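A set of 10 genes of the unique molecular identifier (UMI) count table was followed in a *Helq* null mouse line and in wild-type mice. They were *Zfp990*, *Gm48168*, *BC023719*, *Cap1* and *Slc30a2*, which were higher in *Helq* null germ cells, and *Zfp978*, *Dhrs4*, *Mup6*, *Pnp2* and *Slc9a3r2*, which were lower. These 10 of the 31053 genes in the table were picked by name because their levels differed strongly between the genotypes in these same cells. Their genotype differences are therefore given as a description with standard errors and without p-values. The question put to the data was whether each difference was also present in cells without germ cell reporter sorted from the same gonads, or was found in germ cells alone.

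The study sequenced single cells of the mouse male germline by a 3′-tag method that counts UMIs, from embryonic day 6.5 (E6.5) to adulthood. Cells of E11.5 to E18.5 gonads were sorted into a BVSC gate, which collects cells with the germ cell reporters *Prdm1*-mVenus (BV) and *Dppa3*-ECFP (SC), and a Negative gate without reporter signal. From E14.5 the BV signal faded and SC-positive cells were taken as germ cells, and from E13.5 to E16.5 male gonads were cut into a proximal, a central and a distal part. *Helq* null cells (named KOHelq) came from each day of E11.5 to E15.5 and from E18.5, with 2 replicates on each day of E13.5 to E15.5 and 1 on the others, and wild-type cells (WT) from 2 replicates of every embryonic day from E11.5 to E18.5.

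Both genotypes carried the BVSC reporters. Wild-type embryos came from C57BL/6 females mated with BVSC males. The *Helq* null line was derived differently. BVSC embryonic stem cells were edited with Cas9 and 1 guide RNA, cells with a small deletion in both alleles were injected into blastocysts, and the resulting chimeras were intercrossed. The *Helq* mutation and everything else carried by this 1 line, including the genome of the stem cells, therefore cannot be told apart in these data.

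HELQ is a DNA helicase that acts in the repair of blocked replication forks and double-strand breaks, and its loss is known to reduce germ cell numbers. Before birth, male germ cells divide mitotically in the gonad and then enter a long arrest, surrounded by Sertoli, interstitial and other somatic cells of the same genotype. The 10 genes have no common function. They include KRAB zinc finger genes and a major urinary protein gene, which belong to clusters known to vary in copy number between mouse strains, and genes of zinc transport, actin turnover, purine salvage and membrane scaffolding.

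The guide used to make the line is shown because it places the edit at the end of *Helq* opposite to the one that was sequenced. It is printed 5′ to 3′ in lower case with its PAM in capitals, as read from the GENCODE M21 transcript.

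Helq guide: ggagccgccgccggaaaaccGGG

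The guide lies on the transcript strand of *Helq* (minus strand) at chr5:100798315-100798334 (mm10), in the coding part of exon 1, and 3405 bases from the 3′ end of the 3689-base transcript. A 3′ tag therefore lies outside the edited part and does not check the mutation. *Helq* UMIs were present in both genotypes. They were 15.9 to 39.6 CPM (UMIs of a gene per 1000000 UMIs of the pool) in the 9 *Helq* null BVSC pools and 15.1 to 27.7 CPM in the 12 wild-type BVSC pools of the same time-points. The log2 fold change was 0.06 ± 0.17 (standard error) in BVSC cells (adjusted p = 0.951) and −0.28 ± 0.31 in Negative cells (adjusted p = 0.95, edgeR quasi-likelihood test over all genes).

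A pool is the sum of all cells of a time-point, genotype, replicate and gate, and pools were the unit of every comparison. The *Helq* null gave 766 BVSC cells in 9 pools and 328 Negative cells in 9 pools, and the wild type gave 1331 and 572 cells in 16 pools each. BVSC pools held 66 to 96 cells and 15892008 to 38338265 UMIs, and Negative pools 22 to 48 cells and 2371707 to 14846785 UMIs, so the same CPM rests on fewer UMIs in Negative pools. The labels of the sequenced libraries gave no group, and time-point, genotype, gate and replicate came from the deposited cell names. Of the 39 libraries used, 1 held cells of both genotypes, and 14 held both gates. All 96 cell barcodes recurred in more than 1 library, as the method reuses a fixed set. The 10 germ cell marker genes summed to 2177 to 4208 CPM in *Helq* null BVSC pools and 1833 to 4259 CPM in wild-type BVSC pools of the same days. In Negative pools they summed to 104.7 to 935.5 and 75.4 to 659.4 CPM. The Negative gate thus held less germ cell RNA but was not free of it. A summed *Ddx4*, *Dazl*, *Dnd1* and *Mael* level of at least 100 CPM was found in 34.45% of *Helq* null and 31.8% of wild-type Negative cells. In BVSC cells these shares were 99.87% and 100%. At E18.5 this level was found in 23 of 24 *Helq* null Negative cells, and in 21 of 24 and 22 of 22 in the wild-type pools.

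The 10 genes did not all compare alike between the genotypes in the 2 gates. All 5 genes that were higher in *Helq* null BVSC cells were also higher in *Helq* null Negative cells. The part of germ cell RNA in these Negative levels was not tested. Medians in *Helq* null Negative and BVSC pools were 7.76 and 73.2 CPM for *Zfp990*, 2.24 and 96.1 CPM for *Gm48168* and 62.5 and 72.1 CPM for *Cap1*. Negative cells with germ cell RNA by the limit above were left out in an alternative fit. Pools left with fewer than 10 cells dropped out of it, namely *Helq* null E15.5 replicate 1 and the E18.5 pools of both genotypes. The Negative log2 fold changes were then 4.87 ± 0.83 (*Zfp990*), 6.26 ± 1.49 (*Gm48168*), 7.43 ± 0.80 (*BC023719*), 1.425 ± 0.277 (*Cap1*) and 1.525 ± 0.742 (*Slc30a2*). Of the 5 that were lower in BVSC cells, *Zfp978*, *Mup6* and *Pnp2* had low levels in Negative cells of both genotypes, too low to show whether they differed there. *Dhrs4* and *Slc9a3r2* were abundant in Negative cells of both genotypes. There the log2 fold change of *Slc9a3r2* was 0.00 ± 0.19. That of *Dhrs4* was −0.45 ± 0.21, and −0.12 ± 0.19 in the alternative fit. For *Dhrs4*, 6 of 9 *Helq* null Negative pools were below both wild-type pools of their time-point and 1 was above both. The ranges of all *Helq* null and all wild-type pools did not overlap for *Zfp990*, *Cap1* and *Slc30a2* in BVSC cells and for *Zfp990* and *Cap1* in Negative cells. Over all genes tested, 0.0371% did not overlap in BVSC cells and 0.0441% in Negative cells, and with the *Helq* null higher 0.0185% and 0.0252%. Called higher were 0.273% of genes in BVSC cells and 0.0629% in Negative cells, and called lower 0.431% and 0.0252%. In both gates and 1 direction 0.0577% were called, 0.0448% higher and 0.0128% lower, and 0.0184% were called for a genotype difference that was not the same in both gates, all of them more negative in BVSC cells. As the 10 genes were taken for this contrast, nothing is read from their number against these shares.

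**Figure D1:**
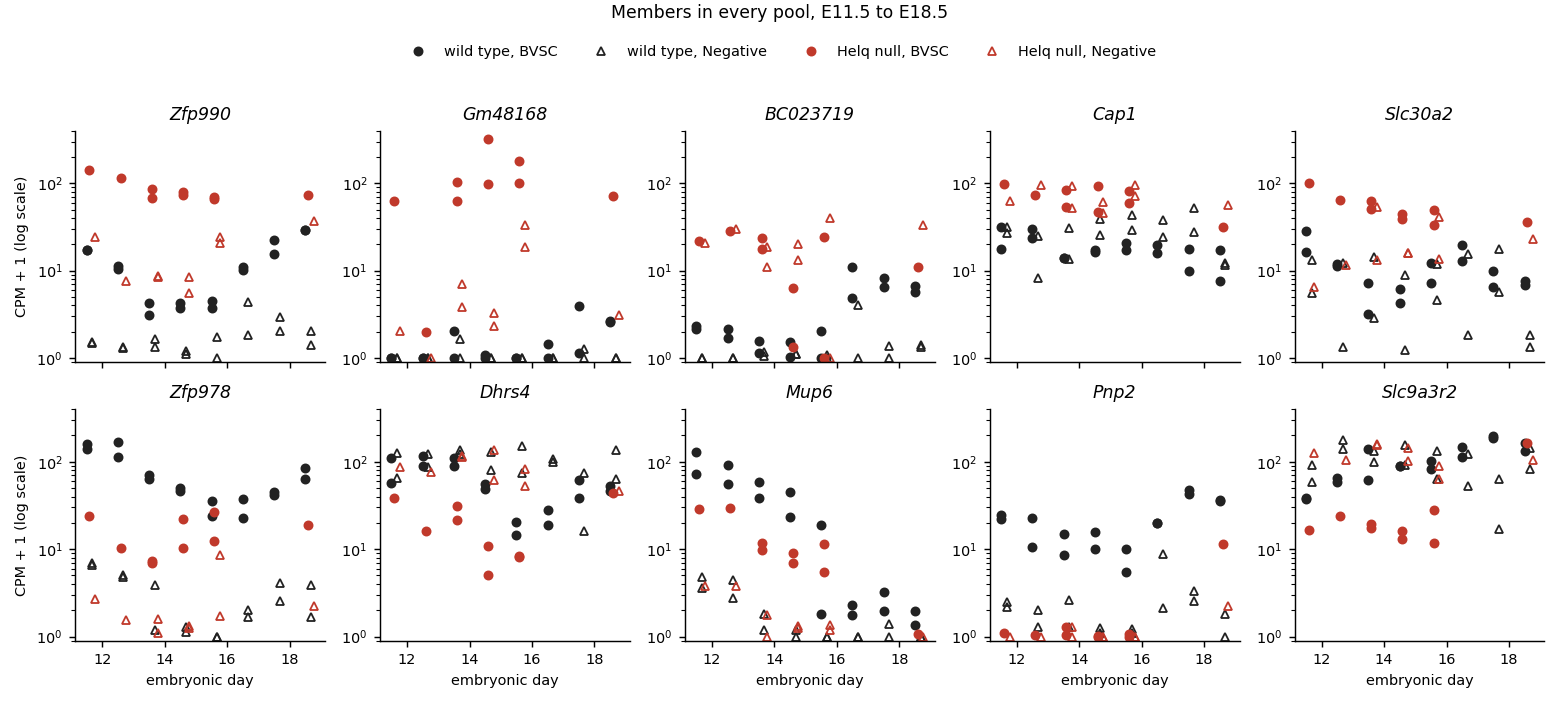
Level of the 10 genes (y axis, CPM + 1 on a log scale) by embryonic day (x axis), with 1 point per pool, circles for BVSC and triangles for Negative cells, *Helq* null in red and wild type in black. *Cap1* was 30.9 to 96.2 CPM in *Helq* null BVSC pools and 45.2 to 94.3 CPM in *Helq* null Negative pools, while *Slc9a3r2* was separated between the genotypes in BVSC cells before E18.5 and overlapped in Negative cells.

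*Zfp990*, a KRAB zinc finger gene of the distal chromosome 4 cluster whose family is known for silencing transposable elements, did not overlap between the genotypes in either gate. Its level was 64.3, 73.2 and 140.1 CPM (lowest, median and highest of 9 pools) in *Helq* null BVSC cells and 2.15, 6.49 and 28.5 CPM in 12 wild-type pools. In Negative cells it was 4.51, 7.76 and 36.3 CPM in the *Helq* null and 0, 0.374 and 1.02 CPM in the wild type. Every *Helq* null pool was above every wild-type pool of its gate. The log2 fold change was 3.94 ± 0.29 in BVSC cells and 5.02 ± 0.57 in Negative cells, and the BVSC value minus the Negative value, from a joint fit, was −1.09 ± 0.47. The wild-type BVSC level rose towards birth, to 28.4 and 28.5 CPM at E18.5, where the *Helq* null pool had 73.2 CPM and the gap was narrowest.

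*Cap1* encodes cyclase-associated protein 1, which works with cofilin to recycle actin monomers in most cell types. It was 30.9, 72.1 and 96.2 CPM in *Helq* null BVSC pools against 6.65, 16.3 and 30.3 CPM in the wild type. In Negative cells the levels were 45.2, 62.5 and 94.3 CPM against 7.17, 25.5 and 42 CPM. No pools overlapped in either gate. The log2 fold changes were close in size, 1.95 ± 0.19 in BVSC and 1.55 ± 0.25 in Negative cells, and their difference was 0.43 ± 0.32. *Cap1* and *Zfp990* were the members in which all 9 *Helq* null pools lay above both wild-type pools of their time-point in both gates.

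*Slc30a2* encodes the zinc transporter ZnT2, which loads zinc into vesicles. Its level was 31.9, 48.4 and 98.6 CPM in *Helq* null BVSC pools and 2.18, 6.47 and 27.5 CPM in the wild type, again without overlap. In Negative cells it was 5.50, 14.9 and 53 CPM against 0.251, 4.06 and 13.3 CPM, and these ranges overlapped. The log2 fold change was 2.79 ± 0.22 in BVSC cells and 1.93 ± 0.65 in Negative cells, a difference of 0.95 ± 0.66 in the joint fit. All 9 BVSC pools but 6 of 9 Negative pools of the *Helq* null exceeded both wild-type pools of their time-point. The exceptions in the Negative gate included E11.5, where the *Helq* null pool had 5.50 CPM and the wild-type pools 12.3 and 4.54 CPM.

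*Gm48168* is a lincRNA gene on chromosome 13 with no known role. It was 0.993, 96.1 and 323.7 CPM in *Helq* null BVSC pools and 0, 0 and 1.63 CPM in wild-type pools. In Negative cells it was 0, 2.24 and 32 CPM in the *Helq* null and 0, 0 and 0.637 CPM in the wild type. The fitted log2 fold changes were 9.04 ± 0.74 and 6.30 ± 1.16, and the joint fit gave a difference of 2.83 ± 1.91. Most wild-type pools held no UMI of this gene, so the size of these folds depends on the small prior count of the fit and is not a bound. By cells, 673 of 766 *Helq* null BVSC cells had at least 1 *Gm48168* UMI, against 29 of 998 wild-type BVSC cells.

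The *Helq* null pools did not share 1 level of *Gm48168*. The E12.5 BVSC pool had 0.993 CPM, with a UMI in 16 of its 70 cells, while the other 8 BVSC pools had 62.1 to 323.7 CPM. None of the 24 E12.5 *Helq* null Negative cells had a UMI, which allows a share of cells with a UMI of up to 3 in 24. The same 2 pools had *Zfp990* at 114.8 and 6.70 CPM and *Cap1* at 72.1 and 94.3 CPM, as in other *Helq* null pools. The highest Negative level, 32 CPM at E15.5 replicate 1, was in the pool with the highest germ cell marker sum of all Negative pools, 935.5 CPM. In that pool 33 of 42 cells had a summed *Ddx4*, *Dazl*, *Dnd1* and *Mael* level of at least 100 CPM. With all such cells left out of the Negative gate, this pool had fewer than 10 cells and dropped out, as did the E18.5 pools. Over the remaining pools the *Gm48168* log2 fold change was 6.26 ± 1.49.

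*BC023719* is annotated as an antisense RNA gene within the histocompatibility region of chromosome 17. It was 0, 16.6 and 27.3 CPM in *Helq* null BVSC pools and 0, 0.878 and 5.74 CPM in the wild type. In Negative cells it was 0, 19.4 and 39.3 CPM against 0, 0.0792 and 0.407 CPM. The log2 fold changes were 4.16 ± 0.83 in BVSC and 7.55 ± 0.84 in Negative cells, and the joint fit gave −3.51 ± 1.24 for the difference. *Helq* null Negative cells thus had a median close to that of *Helq* null BVSC cells.

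*BC023719* was not detected in some pools of the *Helq* null. At E15.5 replicate 1 none of 95 BVSC cells and none of 42 Negative cells had a UMI, which allows shares of cells with a UMI of up to 3.16% and 7.14% (3 cells, counting error within this replicate only) and sets no limit on cells that express the gene at a low level. These cells came from all 3 gonad parts, and their median depth was 307200 UMIs in BVSC and 325000 UMIs in Negative cells. At E15.5 replicate 2 the gene was found in 68 of 92 BVSC cells (73.9%) and 26 of 47 Negative cells (55.3%), at 23.2 and 39.3 CPM. At E14.5 replicate 2 it was found in 3 of 96 BVSC cells (0.356 CPM) and in 16 of 48 Negative cells (19.4 CPM). The 2 gates of that replicate therefore differed for this gene, and they came from the same named replicate. In all, 337 of 766 *Helq* null BVSC cells had a UMI against 69 of 998 wild-type cells. In the Negative gate the median share of cells with a UMI was 33.3% over *Helq* null pools and 2.08% over wild-type pools.

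**Figure D2:**
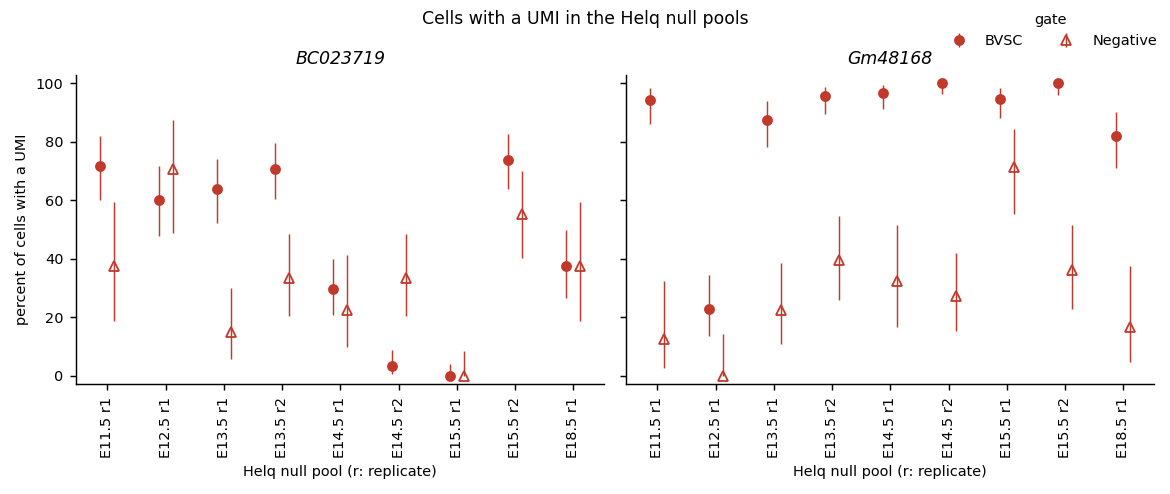
Percent of *Helq* null cells with at least 1 UMI (y axis) of *BC023719* and *Gm48168* in each *Helq* null pool (x axis), with circles for BVSC cells, triangles for Negative cells and exact 95% binomial intervals as bars. *BC023719* had no UMI in either gate at E15.5 replicate 1 and was in 73.9% of BVSC cells of E15.5 replicate 2, while *Gm48168* was in 22.9% of BVSC cells at E12.5 and in 81.9% to 100% in the other BVSC pools.

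*Zfp978*, a further zinc finger gene of the chromosome 4 cluster, was lower in the *Helq* null in BVSC cells. It was 5.91, 11.2 and 25.3 CPM in *Helq* null BVSC pools and 22.9, 65.9 and 165.4 CPM in the wild type, so the ranges overlapped at their edge. At E15.5, where wild-type pools had 22.9 and 34.6 CPM, the *Helq* null pools had 25.3 and 11.2 CPM, and E15.5 replicate 1 was the pool not below both wild-type pools of its time-point. In Negative cells levels were near 0, with medians of 0.571 CPM in the *Helq* null and 1.77 CPM in the wild type. The log2 fold change was −2.27 ± 0.34 in BVSC and −0.33 ± 1.29 in Negative cells. The standard error in Negative cells covers a change as large as that in BVSC cells, so the data there cannot show whether the gene differed, and the joint fit gave a difference of −2.14 ± 0.93.

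*Mup6* belongs to the major urinary proteins, lipocalins best known as pheromone carriers made in the liver. It was 0.0629, 8.71 and 28.6 CPM in *Helq* null BVSC pools and 0.363, 40.9 and 126.7 CPM in wild-type pools. The log2 fold change was −1.70 ± 0.41. The level was 27.9 CPM at E11.5 and 0.0629 CPM at E18.5 in the *Helq* null, and a mean of 99.1 and 0.672 CPM in the wild type. The genotypes therefore overlapped across time-points, but 7 of 9 *Helq* null pools were below both wild-type pools of their day. In Negative cells the highest pools were 2.79 and 3.78 CPM and the log2 fold change was 0.82 ± 1.01.

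*Pnp2* encodes a purine nucleoside phosphorylase, an enzyme of purine salvage, next to its paralog *Pnp*. It was nearly absent from *Helq* null BVSC cells before E18.5, at 0 to 0.297 CPM in 8 pools, where wild-type pools had 4.51 to 23.8 CPM. At E18.5 the *Helq* null pool had 10.51 CPM and the wild-type pools 35.9 and 34.6 CPM. All 9 *Helq* null pools were below both wild-type pools of their time-point, and the log2 fold change was −6.21 ± 0.72. By cells, 33 of 766 *Helq* null BVSC cells had a UMI against 494 of 998 wild-type cells. *Pnp2* was too low to be tested in Negative cells, where medians were 0 and 0.279 CPM.

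*Dhrs4* encodes a short-chain dehydrogenase/reductase that reduces carbonyl compounds and retinoids in peroxisomes. It was 4.01, 15.1 and 43.2 CPM in *Helq* null BVSC pools and 13.7, 56 and 113.97 CPM in wild-type pools. All 9 *Helq* null pools were below both wild-type pools of their time-point, and the log2 fold change was −1.72 ± 0.27. In Negative cells it was more abundant than in BVSC cells, at 44.7, 80.9 and 134.4 CPM against 63.1, 120.7 and 148.7 CPM, with a log2 fold change of −0.45 ± 0.21. The fit of both gates put the change in BVSC cells below that in Negative cells by −1.24 ± 0.34 on the log2 scale. Both genotypes had their lowest BVSC levels at E14.5 or E15.5. At E18.5 the *Helq* null pool had 43.2 CPM and the wild-type pools 45 and 51.8 CPM, and the distance to the nearer wild-type pool was smaller than that between the wild-type pools.

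*Slc9a3r2* encodes NHERF2, a PDZ scaffold that links membrane transporters to ezrin and the actin cortex. It was 10.7 to 27 CPM in the 8 *Helq* null BVSC pools of E11.5 to E15.5 and 36.9 to 139.8 CPM in the 10 wild-type pools of those days, without overlap. At E18.5 the *Helq* null pool had 162.4 CPM, between the wild-type pools of 163.5 and 132.2 CPM. In Negative cells the 2 genotypes had medians of 104.6 and 114.6 CPM, and the *Helq* null range of 62.3 to 159.9 CPM lay within the wild-type range of 58 to 175.5 CPM. The log2 fold change was −1.81 ± 0.26 in BVSC cells and 0.00 ± 0.19 in Negative cells, and the joint fit gave a difference of −1.78 ± 0.33. Its standard error in Negative cells was the smallest of the 9 members tested there.

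The E18.5 values rest on 1 *Helq* null pool per gate. With *Dhrs4*, *Slc9a3r2* and *Pnp2*, 3 of the 5 lower genes were closer to wild type in it than at earlier days, whereas *Zfp978* was 17.7 CPM there against 62.1 and 83.4 CPM, and *Mup6* 0.0629 CPM against 0.980 and 0.363 CPM. Restricting the comparison to E13.5 to E15.5, where both genotypes had 2 replicates, the log2 fold change of *Slc9a3r2* was −2.53 ± 0.24 and that of *Pnp2* −7.28 ± 0.75.

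**Figure D3:**
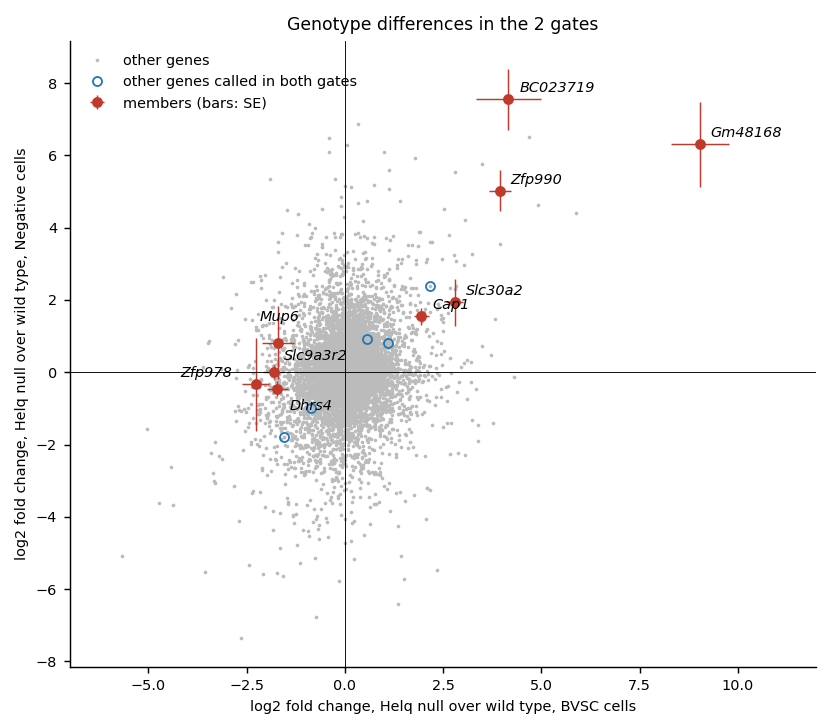
Log2 fold change of *Helq* null over wild type in BVSC cells (x axis) and in Negative cells (y axis), with the 9 members tested in both gates in red with standard errors as bars, other genes in grey and the 5 other genes called in both gates circled in blue. *Cap1* and *Zfp990* had positive values in both gates, and *Slc9a3r2* lay at −1.81 in BVSC cells and 0.00 in Negative cells.

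The 1 library with cells of both genotypes, from E13.5 replicate 1, gave a comparison within a library. There the 32 *Helq* null BVSC cells, from the distal part of the gonad, and the 31 wild-type BVSC cells, from the proximal part, differed in the direction of the pools for all 10 genes in BVSC cells. These cells belong to the pools on which the 10 genes were chosen, so the shared direction is no independent check. *Cap1* was 86.2 against 12.7 CPM, *Zfp990* 68.3 against 5.26 CPM and *BC023719* 22.4 against 0.376 CPM. *Slc9a3r2* was 22.3 against 137.5 CPM, *Zfp978* 6.11 against 58.6 CPM and *Pnp2* 0.741 against 15.7 CPM. In the Negative gate, with 15 cells of each genotype, *Cap1* was 50.6 against 12.6 CPM, *Zfp990* 3.52 against 1.51 CPM and *BC023719* 22.4 against 0.504 CPM. There *Slc30a2* was 0 against 4.54 CPM and *Gm48168* 1.32 against 2.02 CPM, opposite to the pools and on at most 9 UMIs, and *Slc9a3r2* was 249.5 against 132.6 CPM. Genotype and gonad part cannot be told apart in this library.

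In the same library, *Gm48168* had 28 UMIs in 16 of the 31 wild-type BVSC cells (3.51 CPM, median depth 281624 UMIs), and none in the 62 cells of that wild-type pool that came from libraries without *Helq* null cells (median depth 315630 UMIs). *Zfp990* was 5.26 and 2.46 CPM and *Slc30a2* 4.76 and 1.13 CPM in those 2 sets of wild-type cells. The genes lower in the *Helq* null had like levels in both sets, such as *Slc9a3r2* at 137.5 and 140.8 CPM. These sets differed both in library and in gonad part, the proximal part against the central and distal parts, and these cannot be told apart, so no expression of *Gm48168* in wild-type cells is read from these UMIs.

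Shares of cells with a UMI were also compared after thinning each cell to 50000 UMIs. Shallower cells were left out, 29 *Helq* null and 47 wild-type BVSC cells and 34 and 60 Negative cells over E11.5 to E18.5. The wild-type numbers include E16.5 and E17.5, which do not enter the shares below. The median share over pools for *Cap1* was 88.6% in *Helq* null and 42% in wild-type BVSC cells (94.7% and 73.4% unthinned), and 79.8% and 39.9% in Negative cells (85.7% and 56.3% unthinned). For *Zfp990* it was 86.2% and 20.1% in BVSC cells (97.1% and 56% unthinned) and 22.9% and 1.45% in Negative cells (41.7% and 4.30% unthinned). For *Slc9a3r2* it was 38% and 84.8% in BVSC cells (70.5% and 95.8% unthinned) and 73.2% and 69.8% in Negative cells (83.3% and 86.5% unthinned). For these 3 genes the shares of cells with the RNA and the CPM were ordered alike between the genotypes in BVSC cells.

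Wild-type cells show where these genes are normally expressed. The genes were not chosen by comparing the gates or the days of the wild type. Wild-type BVSC levels did enter their choice through the genotype contrast. A gene can be strongly lower in the *Helq* null only if its wild-type level is well above 0. The p-values of the members within wild-type cells are therefore not independent of the choice. In wild-type pools of E11.5 to E18.5, 7 of the 10 genes differed between the BVSC and Negative gates (edgeR quasi-likelihood test, Benjamini-Hochberg adjustment over all 21368 genes). This is close to the 60.3% of all genes that differed. *Mup6*, *Zfp978*, *Pnp2*, *Zfp990* and *BC023719* were higher in BVSC cells, and *Cap1* and *Dhrs4* were lower. The median log2 change of all genes was 0.38 in this comparison, and 0.51 with the other scaling, and the directions of these 7 held with both.

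The largest difference was that of *Mup6*, whose log2 fold change of BVSC over Negative cells was 6.06 ± 0.57 (adjusted p = 4.11e-10, edgeR). It was followed by *Zfp978* at 5.39 ± 0.40 (adjusted p = 4.4e-12), *Pnp2* at 4.29 ± 0.44 (adjusted p = 2.37e-09), *Zfp990* at 3.58 ± 0.43 (adjusted p = 3.53e-08) and *BC023719* at 3.09 ± 0.73 (adjusted p = 0.000623). *Zfp978*, *Mup6* and *Pnp2*, which had few UMIs in Negative cells, and *Zfp990* were thus mainly found in germ cells of the wild-type gonad. *Dhrs4* at −1.08 ± 0.27 (adjusted p = 0.00108) and *Cap1* at −0.76 ± 0.24 (adjusted p = 0.00884) were higher in Negative cells. *Slc30a2* did not pass at 0.46 ± 0.48 (95% interval −0.53 to 1.45, adjusted p = 0.420), nor did *Slc9a3r2* at −0.20 ± 0.24 (95% interval −0.70 to 0.29, adjusted p = 0.477). *Gm48168* had a log2 fold change of 2.60 ± 1.12 (adjusted p = 0.0501), and 2.59 ± 0.91 (adjusted p = 0.0292) when the gates were paired by pool, on very few UMIs in either gate. It passed in 4 of 23 alternatives, and DESeq2 gave 0.82 ± 1.99 (adjusted p = 0.760).

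In all, 8 of the 10 genes changed over the 8 embryonic days of wild-type BVSC cells, where 62.3% of all 23281 genes did (edgeR quasi-likelihood F test). *Zfp978* (adjusted p = 1.71e-06) had its highest mean level at E11.5, 148.8 CPM. *Dhrs4* (adjusted p = 5.74e-06) fell from 101.7 CPM at E12.5 to 16.6 CPM at E15.5 and was 48.4 CPM at E18.5. *Mup6* (adjusted p = 1.05e-05) fell from 99.1 CPM to 0.672 CPM. *Zfp990* (adjusted p = 0.00015) fell to a mean of 2.71 CPM at E13.5 and rose to 28.5 CPM at E18.5.

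*Slc9a3r2* (adjusted p = 0.00136) rose from 37 CPM at E11.5 to 193.1 CPM at E17.5, while *Helq* null pools of E11.5 to E15.5 stayed at 27 CPM or below. *Slc30a2* (adjusted p = 0.00861) and *Pnp2* (adjusted p = 0.00884) passed as well, the latter with its highest mean of 44 CPM at E17.5. *Cap1* (adjusted p = 0.0332) was the weakest call. It was kept in 15 of 22 alternative settings (adjusted p 0.0116 to 0.134). It was lost with DESeq2, with the other scaling, and without E11.5 replicate 2, either E12.5 replicate, E16.5 replicate 1 or E18.5 replicate 2. *Slc30a2* lost its call without E11.5 replicate 1 (adjusted p = 0.0746). *BC023719* (adjusted p = 0.0684) and *Gm48168* (adjusted p = 0.0936) did not pass, and passed in 7 and 2 of the 22 alternatives.

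**Figure D4:**
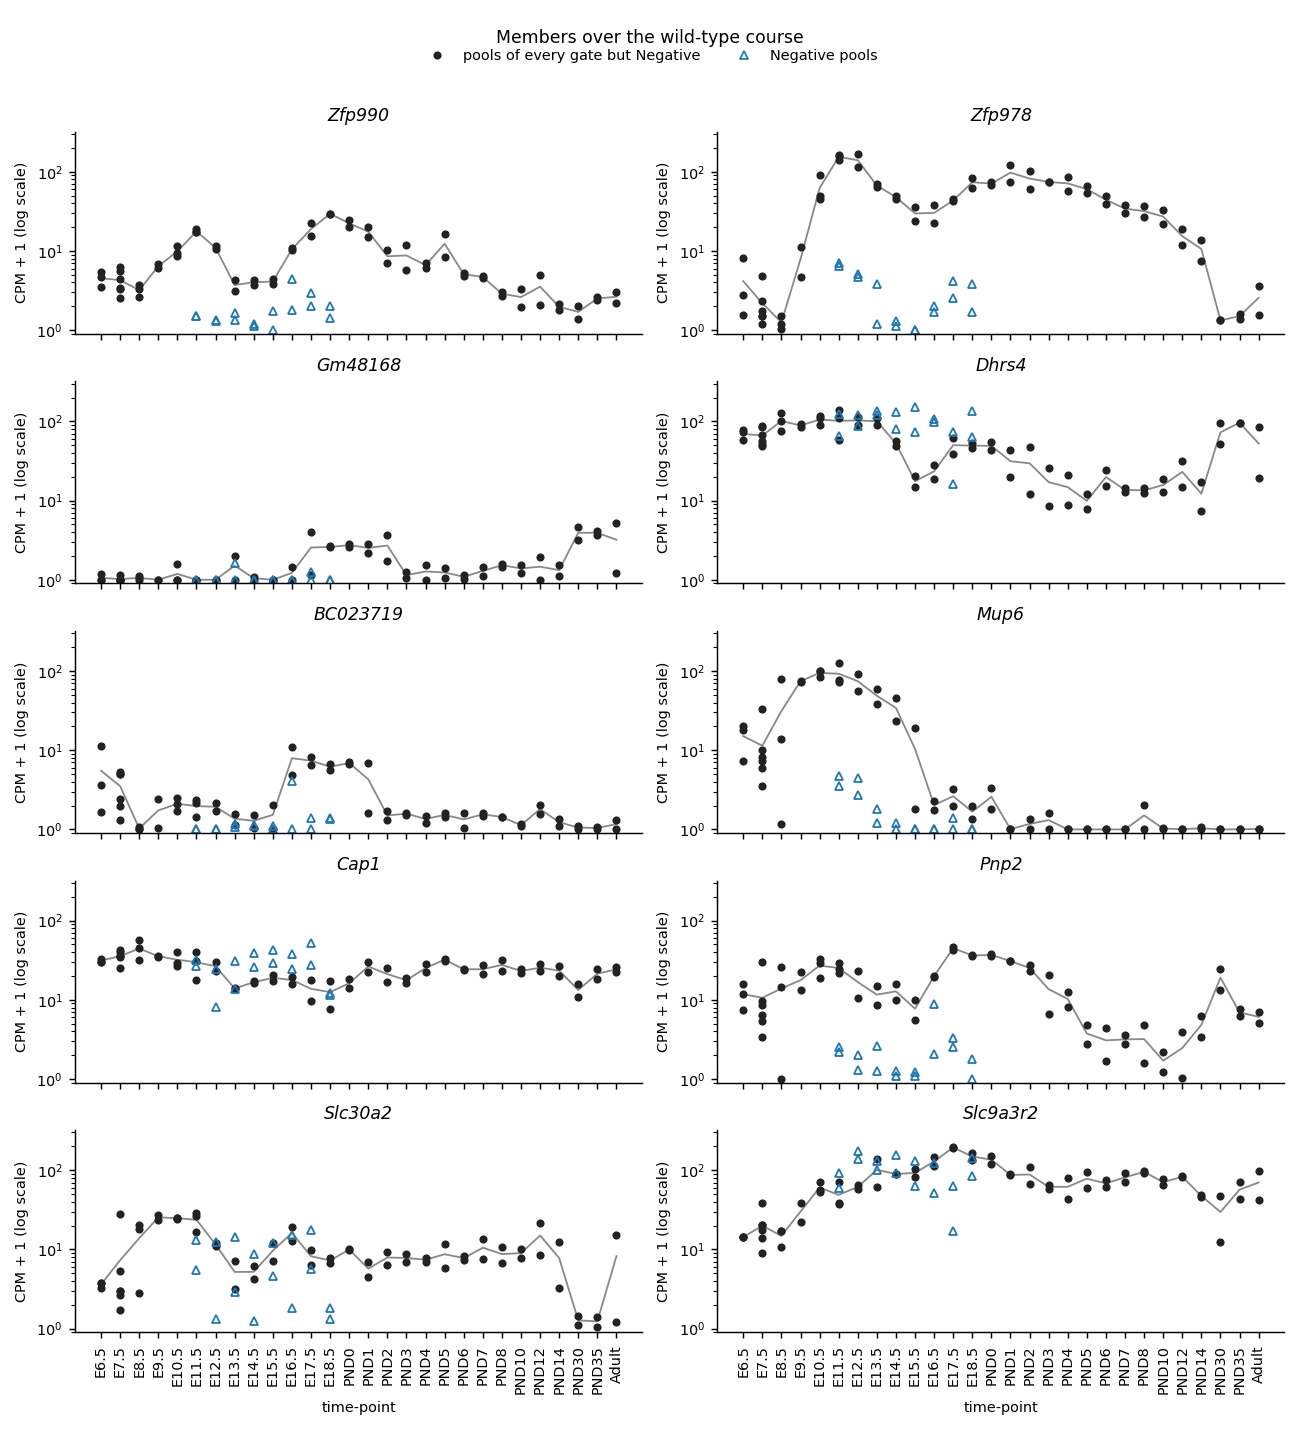
Level of the 10 genes (y axis, CPM + 1 on a log scale) in wild-type pools from E6.5 to adulthood (x axis, time-points in order), with 1 point per pool, triangles for Negative pools, circles for all other pools and a line through the mean of the circles. *Gm48168* was never above 4.19 CPM, and *Mup6* had a median of 75.8 CPM from E8.5 to E10.5 and of 0.00913 CPM from PND0 to PND4.

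The wild-type course outside these days placed the genes further. *Gm48168* was 0 to 0.168 CPM in the 9 pools of E6.5 and E7.5 and 0.204 to 4.19 CPM in the 6 pools of PND30 to adult. These wild-type levels were below those of the 8 *Helq* null BVSC pools at 62.1 to 323.7 CPM, and overlapped the *Helq* null E12.5 BVSC pool and the *Helq* null Negative pools. *Mup6* had a median of 75.8 CPM in the 8 pools of E8.5 to E10.5 and of 0.00913 CPM in the 10 pools of PND0 to PND4. *Zfp978* had a median of 73.3 CPM at PND0 to PND4 and 0.467 CPM at PND30 to adult. *Cap1* ranged from 9.80 to 55.2 CPM across all these stages. Its highest wild-type pools there lay within the *Helq* null BVSC range of 30.9 to 96.2 CPM and below the *Helq* null median of 72.1 CPM. *Slc30a2* reached 27.2 CPM at E6.5 and E7.5, below its lowest *Helq* null BVSC pool of 31.9 CPM. *BC023719* reached 10.2 CPM at E6.5 and E7.5, within the *Helq* null BVSC range.

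The 10 genes lay on 4 chromosomes. There were 5 on chromosome 4, namely *Mup6* (chr4:59964294-60007274, plus strand), *Cap1* (chr4:122859047-122886056, minus), *Slc30a2* (chr4:134343181-134354484, plus), *Zfp990* (chr4:145510759-145539188, plus) and *Zfp978* (chr4:147361303-147391004, plus), in mm10 with GENCODE M21. *Zfp990* and *Zfp978*, which moved in opposite directions, were 1.85 Mb apart. *Pnp2* (chr14:50955992-50964749, plus) and *Dhrs4* (chr14:55478758-55490340, plus) were 4.52 Mb apart on chromosome 14. *Slc9a3r2* (chr17:24639286-24650327, minus) and *BC023719* (chr17:36111426-36117121, plus) were 11.46 Mb apart on chromosome 17, and *Gm48168* (chr13:65491789-65496793, minus) was on chromosome 13. None was on chromosome 5, where *Helq* lies (chr5:100762145-100798598, minus).

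Neighbouring genes were counted to see whether other genes of these regions differed between the genotypes. Among genes tested in both gates and called in both, none of 281 within 1 Mb and none of 1011 within 5 Mb of a member was called, against 5 of 15430 genes in all (0.0324%). Those 5 were *Glo1*, *Zrsr1*, *Gm11361*, *Riok3* and *Gm10036*. Within 10 Mb of a member 1 of 1353 was called in both gates, *Glo1*. At such shares windows of these sizes mostly hold no call, so the lack of calls says little about these regions. In BVSC cells alone, a count added after the values were seen, 17 of 425 neighbours within 1 Mb were called (4%), 28 of 1378 within 5 Mb (2.03%) and 43 of 1897 within 10 Mb (2.27%). Of all genes in the BVSC comparison 0.705% were called, and of those more than 10 Mb from every member 97 of 19334 (0.502%). Around *Helq* itself none of 25 genes within 1 Mb and none of 88 within 5 Mb was called.

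The called neighbours were unevenly spread. Around *Gm48168*, 5 of 26 genes within 1 Mb were called (19.2%), and all 5 were higher in the *Helq* null. They included *Gm26754* with a log2 fold change of 4.69 ± 0.48 (adjusted p = 4.17e-06, edgeR), *2410141K09Rik* at 2.08 ± 0.21 (adjusted p = 3.65e-06) and *Gm48166* at 5.38 ± 0.92 (adjusted p = 0.00501), the last of which overlaps *Gm48168* on the opposite strand. Around *Pnp2* and *Dhrs4*, 5 of 98 were called, all lower. They were *Haus4*, a subunit of the augmin complex that nucleates spindle microtubules, at −1.30 ± 0.12 (adjusted p = 7.33e-07), *Pnp* at −1.07 ± 0.21 (adjusted p = 0.0113), *Osgep* at −0.57 ± 0.09, *Acin1* at −0.47 ± 0.09 and *Gm5622* at −4.22 ± 0.94. Around *Slc9a3r2*, 3 of 92 were called, among them *Meiob*, which is needed for meiotic recombination, at −2.44 ± 0.53 (adjusted p = 0.0300). No neighbour within 1 Mb was called around *Cap1*, *Mup6*, *Zfp990* or *BC023719*. Some called neighbours overlap a member or share 3′ sequence with it, namely *Gm48166*, *Gm26754*, *Pnp* and, near *Zfp978*, *Rex2*. Their values may not be separate from those of the members, and no count was made without them.

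**Figure D5:**
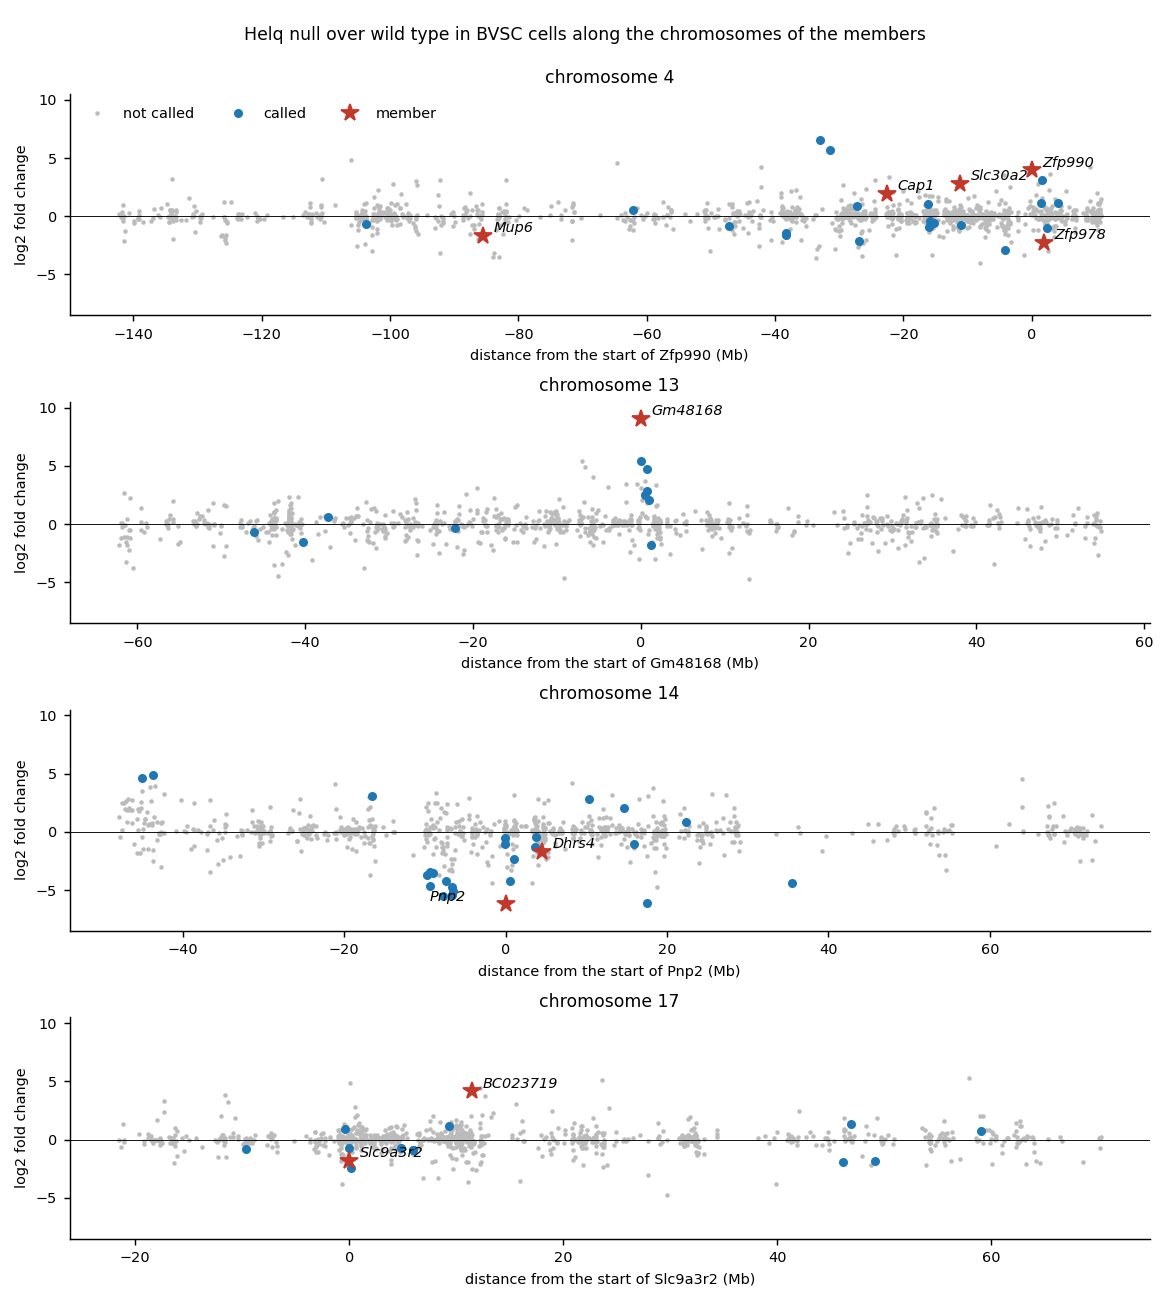
Log2 fold change of *Helq* null over wild type in BVSC cells (y axis) by distance in Mb from the start of a member (x axis) on chromosomes 4, 13, 14 and 17, with the members, which were chosen for this contrast, as red stars, other called genes in blue and genes not called in grey. The 5 called genes within 1 Mb of *Gm48168* all lay above 0, and the 5 within 1 Mb of *Pnp2* or *Dhrs4* all lay below 0.

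Reads can be shared between copies of some of these genes, which limits what a UMI of theirs means. The authors kept uniquely aligned reads, so a read within sequence shared with a copy would be lost and not counted. Of the 50-base stretches in the last 500 bases of each transcript, 81.2% were shared with transcripts of other genes for *Zfp978*, among them *Rex2* and *Zfp600*. The share was 24.6% for *Zfp990*, 31.7% for *BC023719* and 4.21% for *Mup6*. For *Gm48168*, whose annotated transcript has 364 bases, 41.6% were shared with *Gm26754*. *Pnp2* shared 0.665% with *Pnp*, and *Cap1*, *Slc30a2*, *Dhrs4* and *Slc9a3r2* shared none. *Cap1* overlaps *Ppt1* on the opposite strand, *Pnp2* lies inside the annotated span of *Pnp* on the same strand, *BC023719* overlaps *Gm7030* on the opposite strand and *Zfp978* overlaps *C230088H06Rik* and *Gm26624*. The strand setting of the counting is not given in the sources used here, so reads of overlapping genes cannot be told apart. The 3′ ends of *Zfp978* and *Rex2* were shared while *Rex2* was called higher (1.15 ± 0.21, adjusted p = 0.00755) and *Zfp978* was lower.

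Few genes of the families and pathways of the members were called between the genotypes. Among the other zinc transporters of the *Slc30a* family, 0 of 8 tested genes were called between the genotypes in BVSC cells and 0 of 8 in Negative cells, with a median log2 fold change of 0.10 in BVSC cells against 0.02 over all genes. Of the other genes of actin turnover around *Cap1* (cofilins, profilins, actins, twinfilins), 0 of 11 were called in either gate, with a median of −0.03 in BVSC cells. Of the ezrin-radixin-moesin proteins and other partners of NHERF, 0 of 7 were called in BVSC and 0 of 6 in Negative cells, with a BVSC median of 0.08. Of the other *Dhrs* genes, 0 of 7 and 0 of 6 were called, with a BVSC median of 0.03. In purine salvage, 1 of 8 was called in BVSC cells, *Pnp*, which was lower and is a neighbour of *Pnp2*, and 0 of 7 in Negative cells. These counts stand against 0.705% of all genes called in BVSC cells and 0.0881% in Negative cells. At such shares lists of 6 to 11 genes mostly hold no call, so the lack of calls says little about these pathways.

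The clustered families gave few measurable genes or isolated calls. Of the other major urinary protein genes, 3 could be tested in BVSC cells and none was called, with a median log2 fold change of −3.17, and none could be tested in Negative cells. Of the other KRAB zinc finger genes and their cofactor *Trim28*, 1 of 22 was called in BVSC cells, *Rex2*, and 1 of 17 in Negative cells, *Zfp992*, which was higher in the *Helq* null by 1.42 ± 0.26 (adjusted p = 0.0214, edgeR). Between the wild-type gates, 19 of these 22 zinc finger genes differed, 17 of them higher in BVSC cells, and 9 of the 11 actin turnover genes differed, all lower in BVSC cells, as *Zfp990* and *Zfp978* and *Cap1* were. Over all genes 36.5% were higher and 23.8% lower in BVSC cells.

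One gene outside the 10 met the pattern of no overlap in both gates and 1 direction, *Glo1* on chromosome 17 (chr17:30584936-30626871), which encodes glyoxalase 1, the enzyme that detoxifies methylglyoxal. It was 156.9 to 297.6 CPM in *Helq* null BVSC pools and 310.5 to 491 CPM in wild-type pools. In Negative cells it was 209 to 277.6 CPM and 354.3 to 702.7 CPM. Its log2 fold change was −0.87 ± 0.12 in BVSC (adjusted p = 0.000282, edgeR) and −1.0 ± 0.14 in Negative cells (adjusted p = 0.000622), so it was close in both, as it was for *Cap1*. It lies 5.49 Mb from *BC023719*. With *Zfp990* and *Cap1*, which were chosen for their difference, it made up the 3 of 15609 genes with this pattern (0.0192%).

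None of the marker genes of germ cells, Sertoli, interstitial and peritubular, Leydig, endothelial and blood cells was called between the genotypes in either gate (edgeR). The 5 Leydig cell markers summed to 112.998 to 3045 CPM (median 1518) in the 9 *Helq* null Negative pools and to 1.71 to 1224 CPM (median 380.4) in the 12 wild-type ones of the same days. Sertoli cell markers summed to 623.4 to 2007 CPM and 123.9 to 2882 CPM there. The part of this mixture in the Negative gate results was not tested. In BVSC pools the highest sums of Sertoli and Leydig markers were 289.9 and 104.4 CPM in the *Helq* null and 412.8 and 976.6 CPM in the wild type on the same days.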

How the data were processed

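The authors sequenced 3′ cDNA tags of single cells, aligned them to mm10 with STAR, kept uniquely aligned reads, assigned them to genes with featureCounts and collapsed them to UMIs with UMI-tools. The deposited values are whole-number UMI counts per gene and cell, without normalization. The paper gives the versions of STAR, featureCounts and UMI-tools, and the CASAVA version was 1.8.

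Cells with over 2000 genes and 10000 to 1000000 UMIs, the authors' limits, were summed per time-point, genotype, replicate and gate into pools of at least 10 cells. Pools were compared with edgeR 4.0.16 (quasi-likelihood test, TMM scaling, filterByExpr, time-point as covariate), with Benjamini-Hochberg adjustment over all genes tested and a threshold of 0.05. "Called" means below it. The code was tested on simulated counts. In the BVSC genotype comparison 45% of 2-fold and 65% of 4-fold changes were called, and in the Negative one 30% and 64%. For the genotype difference between gates the shares were 11% and 37%, between wild-type gates 34% and 63%, and between time-points 8% and 39%. Most 2-fold changes were thus missed in every comparison.

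The members and gene lists were chosen with earlier results of these data known. The named genes were the members, *Helq*, the lists, and neighbours and genes without overlap in both gates. BVSC neighbour counts and neighbours named from them were added after the values were seen. Pools are separate collections by name, and p-values measure the spread between them. Wild-type BVSC and Negative cells of a number came from the same gonads by name (correlations of deviations −0.0114 to 0.154 over 8 days). No expression columns were unmapped. Intervals and limits on shares cover counting error only. No doublet caller was run, as cells were picked singly. Alternatives were another scaling, no filter, DESeq2 1.42.0, all cells, larger pools, a replicate block, E13.5 to E15.5, cells split by germ cell RNA, and leaving out pools.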

Additional observations from a re-analysis of the deposited data

Results flagged for a closer look

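In groups of 9 *Helq* null pools, a pool that stood far from the rest by Dixon's criterion was found in 5 of 20 groups (10 genes in 2 gates). The criterion flags about 1 in 20 groups when all values are drawn from 1 normal distribution. These groups mix days and in part hold levels near 0, so no excess over that rate is read from the count. At E18.5, the single *Helq* null replicate, *Slc9a3r2* in BVSC cells was 162.4 CPM against 10.7 to 27 CPM in the other 8 pools. *Pnp2* in BVSC cells was 10.51 CPM there, against 0 to 0.297 CPM in the others, and *Pnp2* in Negative cells was 1.27 CPM. The *Slc30a2* level of the E11.5 BVSC pool, 98.6 CPM, stood above the others. *Zfp978* in Negative cells was 7.46 CPM at E15.5 replicate 1, the pool with the highest germ cell marker sum of the Negative gate (935.5 CPM).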

How the results depend on the processing

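Another scaling, all cells, larger pools and the split of cells by germ cell RNA kept every count within 1.5 times. The number of genes called between genotypes in BVSC cells, 152, was 378 without a filter on low counts, 534 with DESeq2 and 70 at E13.5 to E15.5, and about 1.0e+02 to 190 leaving out 1 pool. In Negative cells, 14 became about 1.5e+02, 95 and 3, and 10 to 20. For the genotype difference between gates, 4 became about 1.2e+02 and 63, and 0 to 6 leaving out 1 pool, with 2 for several pools. Between wild-type gates the count was 12604 to 13267 and between time-points 13293 to 14507 leaving out 1 pool. Within 10 Mb of a member, 1 gene was called in both gates, against 0 within 5 Mb. The cause of these changes was not tested. Values written with an exponent are rounded to 2 significant digits.

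Genotype replicates share only a number (correlations −0.151 to 0.137), and a replicate block gave about 1.4e+02 calls in BVSC and 13 in Negative cells. Pairing of the wild-type gates gave 13173 calls against 12883 and changed the call of no member but *Gm48168*. The members' log2 fold changes kept their sign in the alternatives that fitted pools, except *Zfp978* (−0.83 to 0.52) and *Slc9a3r2* (−0.12 to 0.12) in Negative cells. Within the shared library, that of *Gm48168* was 3.98, of *Cap1* 2.77 and of *Pnp2* −4.40 in BVSC cells, and of *Slc9a3r2* 0.91 in Negative cells, where *Slc30a2* and *Gm48168* were lower in the *Helq* null on few UMIs. Low UMI numbers limit *Zfp978*, *Mup6* and *Pnp2* in Negative cells. The comparison of calls within the shared library was not run, since it has 1 pool per genotype.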

Other observations

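A further 4 genes outside the 10 and besides *Glo1* were called between the genotypes in both gates in 1 direction, but with pools that overlapped in at least 1 gate. *Gm10036*, a processed pseudogene on chromosome 18, was higher by 2.16 ± 0.20 (log2 fold change, adjusted p = 7.33e-07, edgeR) in BVSC cells and 2.39 ± 0.17 (adjusted p = 1.06e-08) in Negative cells. *Riok3*, an atypical kinase also on chromosome 18, was higher by 1.10 ± 0.11 (adjusted p = 3.65e-06) and 0.80 ± 0.14 (adjusted p = 0.0128). *Zrsr1*, an imprinted splicing factor gene on chromosome 11, was lower at −1.54 ± 0.25 (adjusted p = 0.00157) and −1.80 ± 0.34 (adjusted p = 0.0278). *Gm11361* on chromosome 13 was higher by 0.57 ± 0.12 (adjusted p = 0.0210) and 0.91 ± 0.13 (adjusted p = 0.000622). None of these lies near *Helq* on chromosome 5. They were named after their values were seen.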
